A study of Homo sapiens with 8 samples.

Results

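RNA from the gene of EIF4G1, the scaffold protein of translation initiation, carried 63 of the 4346 binding sites (peaks) of G3BP1 in 2 deposited peak lists. They were chosen as all peaks on the plus strand of chromosome 3 that lie inside 184032200 to 184053200 (hg19), a window of 21000 nt that holds EIF4G1 and leaves out the neighbouring gene PSMD2. Of the 2925 peaks from cells treated with PDS, 37 met this rule, and of the 1421 peaks from untreated cells (Ctrl), 26 did. All groups were the established human embryonic kidney cell line HEK293T: IP libraries made with an antibody to G3BP1 and input libraries made without it, from cells exposed to PDS (20 µM, 12 h) ahead of the crosslinking and from cells with no treatment, with 2 replicates in each of the 4 groups. The labels do not spell out PDS, which in work on guanine quadruplexes is the usual short form of pyridostatin, a ligand of these stacked guanine structures. The assay was seCLIP, in which UV light fixes RNA to the proteins it touches, an antibody pulls down 1 protein, and the RNA pieces attached to it are sequenced.

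eIF4G1 holds together the complex that loads ribosomes onto mRNA: it binds the cap-binding protein eIF4E, the RNA helicase eIF4A, the poly(A)-binding protein and the ribosome-bound factor eIF3. G3BP1 is an RNA-binding protein that nucleates stress granules, the cytoplasmic bodies in which stalled initiation complexes, eIF4G among their components, collect with mRNA when translation is blocked. The peaks below are sites of G3BP1 on RNA from the gene that encodes eIF4G1, not contacts with the eIF4G1 protein. Whether each site lies in the mature mRNA was not checked.

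Each list joins both replicates of its condition and gives 1 value of each kind per peak, so no spread between replicates can be given and no difference between the conditions was tested. Being in a list required enrichment, and the peaks' presence and values are therefore a description. The values are the authors' own for each peak: the log2 fold enrichment of IP over input, and the −log10 p of that enrichment, both read from unlabelled columns by their ranges. A −log10 p of 400 was read as a stand-in for a very small p, since the next highest value in either list was 87.9. The numbers of reads behind the peaks are unknown. Exons, introns and untranslated regions were not assigned, because an hg19 annotation was not used here; positions are given as hg19 coordinates of chromosome 3, plus strand, or as the distance from the 5′ border of the window.

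G3BP1 peaks were spread over the window in both conditions, in about as many regions, and their median enrichment was higher in the PDS list. After peaks within 50 nt were merged, the 37 PDS peaks formed 18 regions and the 26 Ctrl peaks formed 19 regions. The bound length was 1820 nt in the PDS list (8.67% of the window) and 1663 nt in the Ctrl list (7.92%). Enrichment had a median log2 fold of 4.19 over the PDS peaks (quartiles 3.77 and 4.88), against 3.58 over the Ctrl peaks (quartiles 3.35 and 4.13). Over the complete lists these medians were 3.59 for PDS and 3.52 for Ctrl. Of the PDS peaks of EIF4G1, 31 of 37 lay above the median of their list, and of the Ctrl peaks, 14 of 26.

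EIF4G1 had more peaks in the PDS list, but not clearly more regions when all peaks were counted. By peaks the PDS to Ctrl ratio was 1.42, and by merged regions it was 0.947, on the other side of 1. When only touching peaks were merged, the ratio of regions was 1.05. In the rest of the lists the same ratios were 2.07 and 1.74. For bound length the ratio was 1.09 on EIF4G1 and 1.75 elsewhere. With the PDS list cut to its 1421 most enriched peaks, the length of the Ctrl list, EIF4G1 held 30 PDS and 26 Ctrl peaks, a ratio of 1.15. Among strongly enriched peaks the lists were further apart on EIF4G1: a log2 fold of at least 4, which is an enrichment of 16-fold, was reached by 23 of 37 PDS peaks, where 27.6% of all PDS peaks reached it, and by 7 of 26 Ctrl peaks, where 22.0% of all Ctrl peaks did. The PDS to Ctrl ratio of peaks at this level was 3.29 on EIF4G1 and 2.57 in the rest of the lists. Merged within 50 nt, these peaks of EIF4G1 formed 11 PDS and 2 Ctrl regions, a ratio of 5.50. The ratio of regions at this level was not computed for the rest of the lists. A log2 fold of at least 5 was reached by 7 PDS peaks and 2 Ctrl peaks, with 3.59% of all PDS peaks and 2.67% of all Ctrl peaks reaching it. A −log10 p of 400 was given to 3 PDS peaks and 0 Ctrl peaks of EIF4G1, and to 2.80% of all PDS peaks and 0.563% of all Ctrl peaks. The lowest member had a log2 fold of 3.17 in the PDS list and 3.08 in the Ctrl list, just inside the value of 3 that every deposited peak exceeds.

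**Figure D1:**
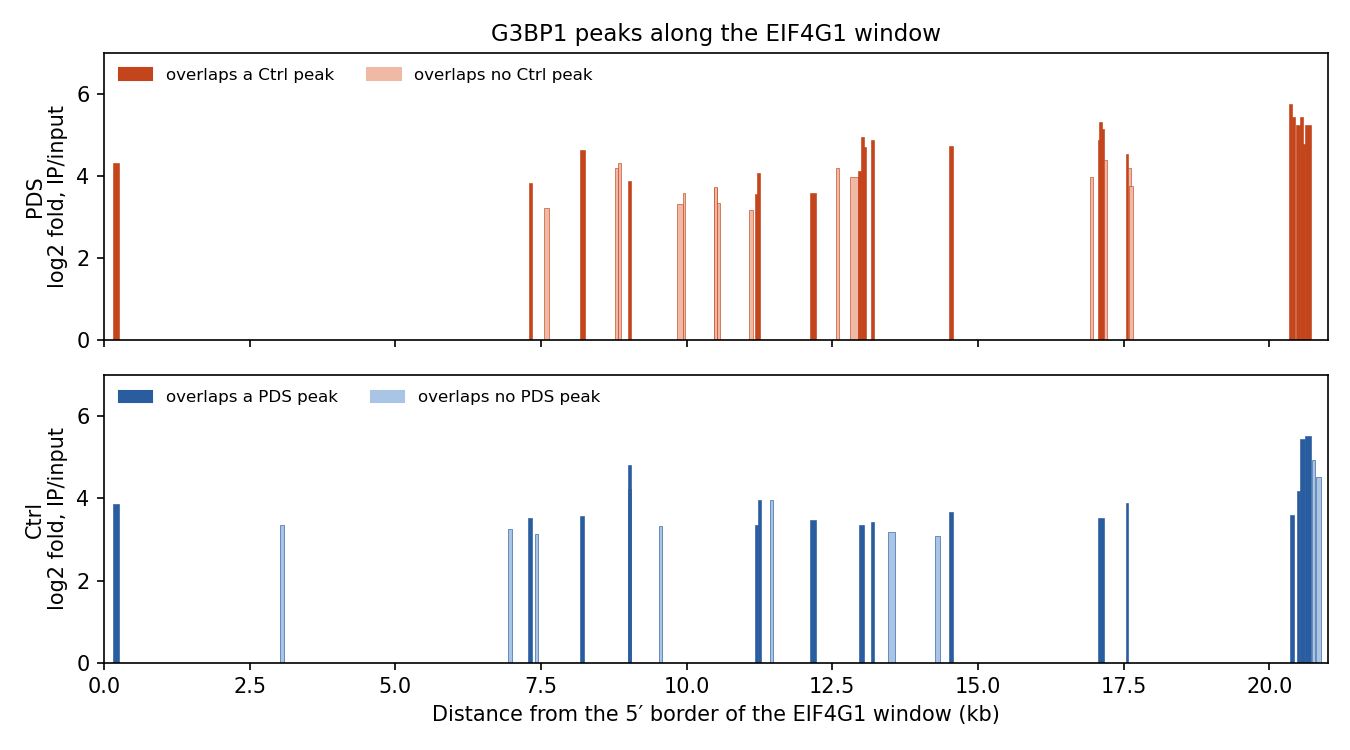
Peaks of G3BP1 along the EIF4G1 window, PDS above and Ctrl below. The x axis is the distance from the 5′ border of the window in kb and the y axis the authors' log2 fold of IP over input; each bar is 1 peak, drawn at least 50 nt wide so that short peaks can be seen, and dark bars overlap a peak of the other list. The highest bars of both lists stand at the 3′ end, and between 3 and 6 kb there is 1 Ctrl peak and no PDS peak.

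The window was divided into 7 stretches of 3000 nt from its 5′ border. At the 5′ end, 1 peak was found in each list, at nearly the same place: the PDS peak lay at 184032356 to 184032463 with a log2 fold of 4.32, and the Ctrl peak at 184032350 to 184032462 with 3.86. This Ctrl peak, 113 nt long, was with another of the same length the widest Ctrl peak on EIF4G1. The next peak downstream belonged to the Ctrl list alone, at 184035223 to 184035285 with a log2 fold of 3.35, and the following 3848 nt held no peak of either list. That was the longest empty interval between the first and the last bound region. The nearest peaks upstream of the window ended 8287 nt from its border in the PDS list (log2 fold 3.16) and 8481 nt from it in the Ctrl list (log2 fold 3.36). No peak crossed a border of the window, and 0 peaks lay on its opposite strand.

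Between 6 and 9 kb both lists had 5 peaks. An isolated site at 184040365 to 184040454 had a log2 fold of 4.63 in the PDS list, and the Ctrl peak within it, at 184040370 to 184040443, had 3.56. At 184039490 to 184039547 a PDS peak of log2 fold 3.83 lay inside a Ctrl peak of 3.52. Of these overlapping peaks, each PDS peak was the more enriched, but the −log10 p went both ways: 45.4 in PDS and 23.7 in Ctrl at the first site, 13.0 in PDS and 18.6 in Ctrl at the second. A stretch at 184040973 to 184041029, made of a 54-nt and a 3-nt PDS peak with log2 folds of 4.19 and 4.31, held no Ctrl peak. The weakest PDS peak of this stretch, at 184039753 to 184039839 (log2 fold 3.23), and the Ctrl peaks at 184039134 to 184039202 (3.26) and 184039605 to 184039650 (3.13) each overlapped nothing in the other list.

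A site at the border of this stretch went the other way. At 184041195 to 184041232 the Ctrl list had an 8-nt peak with a log2 fold of 4.82 and, directly after it, a 30-nt peak with 4.23, the fourth and sixth most enriched Ctrl peaks on EIF4G1. The single PDS peak there, at 184041195 to 184041221, had a log2 fold of 3.88. Both Ctrl peaks also had the higher −log10 p, 37.0 and 32.9, against 26.2 for the PDS peak. It was the only one of 12 regions with peaks of both lists where the highest log2 fold was in the Ctrl list.

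Between 9 and 12 kb, a stretch whose counts take in the longer Ctrl piece and the PDS peak of the site just described, the PDS median was not the higher one. By midpoint the PDS list had 9 peaks there, 6 of them without a Ctrl peak, and the Ctrl list had 5 peaks. The bound length inside the stretch, cut at its borders, was 315 nt in PDS and 159 nt in Ctrl. A log2 fold of 4 was reached by 1 PDS peak and 1 Ctrl peak there, and the median was 3.58 in PDS against 3.96 in Ctrl. A pair of PDS stretches had no Ctrl peak, at 184042033 to 184042135 (highest log2 fold 3.58, −log10 p up to 51.1) and at 184042666 to 184042733 (highest log2 fold 3.73, −log10 p up to 55.1). A Ctrl peak at 184043639 to 184043670 with a log2 fold of 3.97 had no PDS peak within 200 nt. Apart from the site at 184041195, the peaks that met lay at 184043369 to 184043427, where the PDS pieces had log2 folds of 3.55 and 4.07 and the Ctrl pieces 3.35 and 3.96. In both lists the short downstream piece was the more enriched: it was 14 nt long in PDS and 8 nt long in Ctrl.

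From 12 to 15 kb the bound length was nearly equal, 468 nt in PDS and 472 nt in Ctrl, while the enrichment was not. The median log2 fold there was 4.45 over 8 PDS peaks and 3.39 over 6 Ctrl peaks, and none of these Ctrl peaks reached 4. A run of 4 PDS peaks covered 184045004 to 184045236 without a break. Its first piece, 135 nt long and the widest PDS peak on EIF4G1, had a log2 fold of 3.97 with a −log10 p of 400 and overlapped no Ctrl peak. The following pieces had log2 folds of 4.12, 4.96 and 4.71, and all of them lay on 1 Ctrl peak of 78 nt at 184045160 to 184045237 with a log2 fold of 3.35. The most enriched piece of this run, at 184045187 to 184045231, reached 31.1-fold over input, against 10.2-fold for the Ctrl peak over the same bases.

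Beside that run, the site starting at 184045374 was 49 nt long with a log2 fold of 4.89 in PDS and 19 nt long with 3.43 in Ctrl. At 184046701 to 184046772 the PDS peak had a log2 fold of 4.74 and the Ctrl peak around it 3.67. One site in this stretch was nearly alike in position and value: at 184044317 to 184044418 the log2 fold was 3.60 in PDS, and at 184044320 to 184044418 it was 3.47 in Ctrl. The Ctrl peaks at 184045658 to 184045770 (log2 fold 3.18, 113 nt) and 184046461 to 184046544 (3.08) had no PDS peak, and were among the weakest Ctrl peaks of EIF4G1. A 12-nt PDS peak at 184044760 to 184044771 with a log2 fold of 4.19 had no Ctrl peak.

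**Figure D2:**
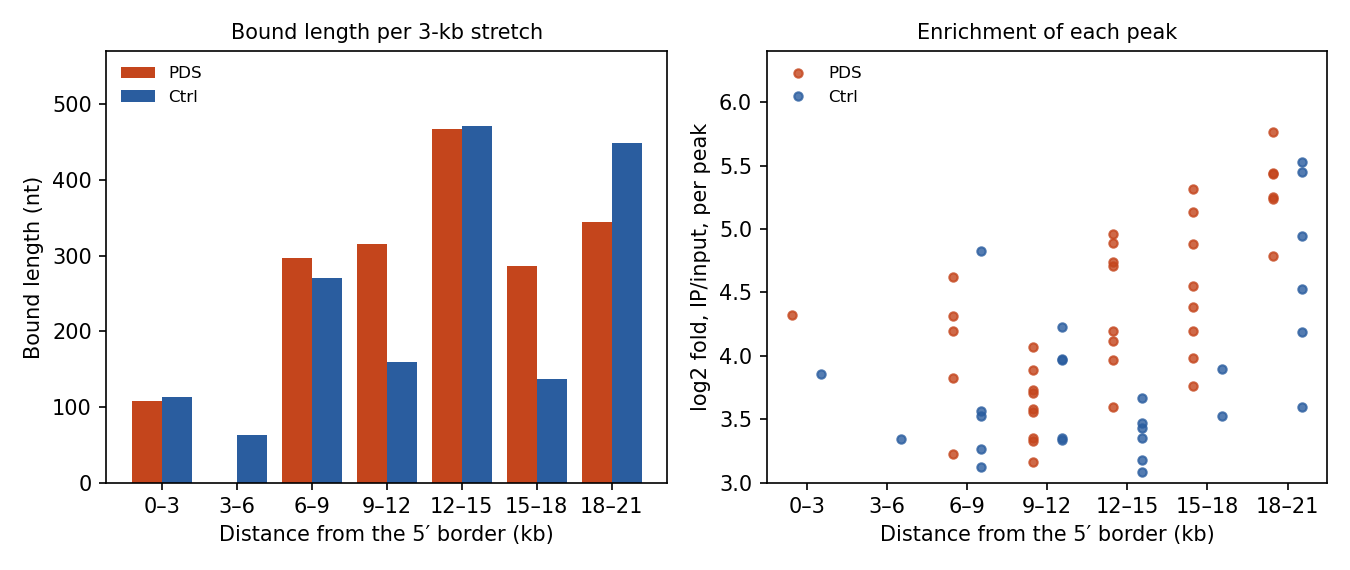
Left, bound length in nt for each 3-kb stretch of the window; right, the authors' log2 fold of IP over input for each peak, placed by its midpoint, with PDS left of Ctrl in every stretch. Between 12 and 15 kb the bound lengths were 468 nt in PDS and 472 nt in Ctrl, while the median log2 folds were 4.45 and 3.39.

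Between 15 and 18 kb the PDS list had 8 peaks and the Ctrl list 2, both of them overlapped by PDS peaks. The stretch at 184049260 to 184049394 held 4 PDS peaks. Of these, the pieces at 184049286 to 184049316 and 184049317 to 184049361 had log2 folds of 5.32 and 5.14, both with a −log10 p of 400. The first piece, at 184049260 to 184049274, had a log2 fold of 4.88, and the last, at 184049362 to 184049394, had 4.39 and reached past the Ctrl peak. The Ctrl peak under the other pieces, at 184049262 to 184049356, had a log2 fold of 3.52 with a −log10 p of 38.0. In linear terms the strongest piece was enriched 39.8-fold over input in PDS, and the Ctrl peak 11.5-fold.

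The other site of this stretch showed a graded series of pieces. From 184049734 to 184049865 the log2 fold of the 3 abutting PDS peaks was 4.55, then 4.19, then 3.77 in the 3′ direction. The Ctrl peak at 184049735 to 184049776, with a log2 fold of 3.90, matched the first of them to within 1 nt at both ends. The other pieces, 18 and 70 nt long, were bound in the PDS list alone. A further PDS peak at 184049122 to 184049152 (log2 fold 3.98) had no Ctrl peak.

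**Figure D3:**
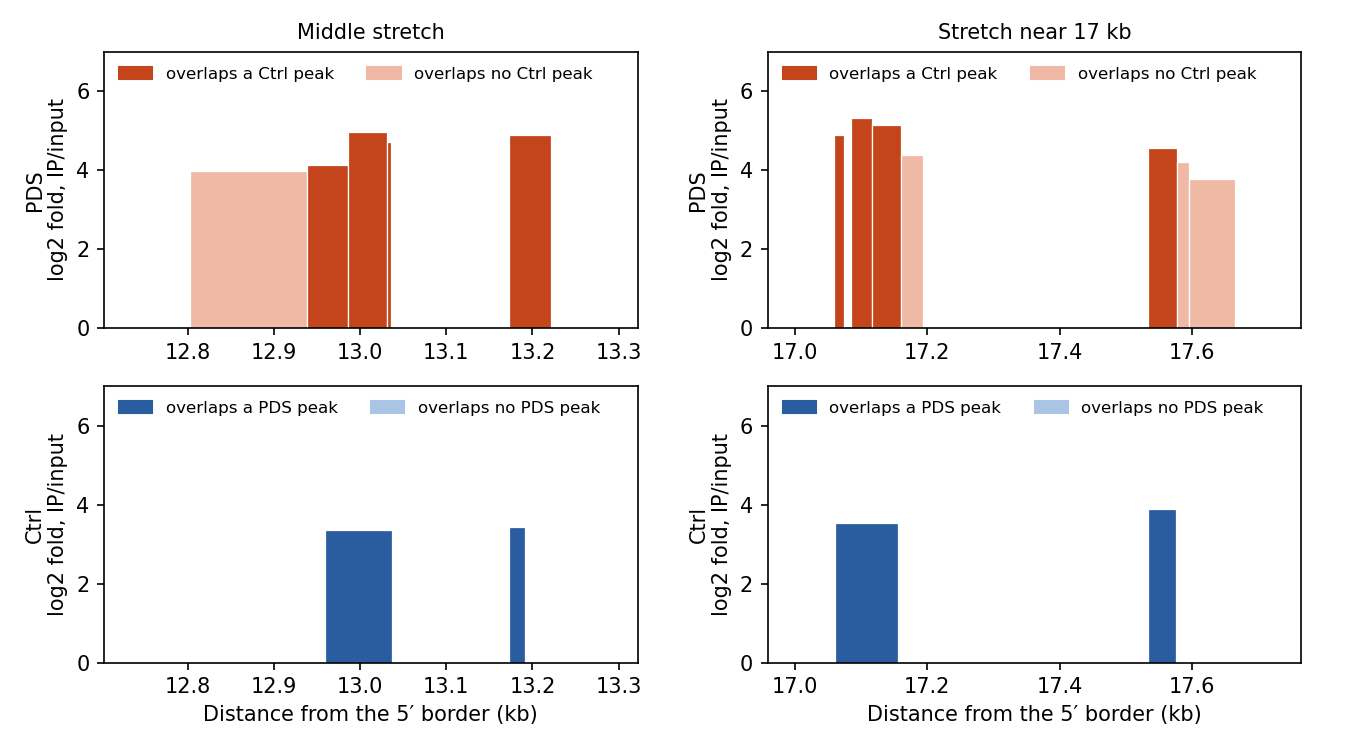
Peaks drawn to scale in 2 stretches of the window, PDS above and Ctrl below; x axis, distance from the 5′ border in kb; y axis, the authors' log2 fold of IP over input; dark bars overlap a peak of the other list. In each stretch 3 PDS pieces overlap 1 wider Ctrl peak, with log2 folds of 4.96 in PDS against 3.35 in Ctrl on the left and 5.32 in PDS against 3.52 in Ctrl on the right.

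The region with most peaks and with the highest log2 fold in each list lay at the 3′ end of the window. This cluster held 6 PDS peaks over 381 nt, from 184052534 to 184052914, and 6 Ctrl peaks over 541 nt, from 184052555 to 184053095. The median log2 fold of the cluster was 5.34 in PDS and 4.73 in Ctrl. Over the peaks elsewhere in the window it was 4.12 for 31 PDS peaks and 3.50 for 20 Ctrl peaks. Of the 7 Ctrl peaks of EIF4G1 with a log2 fold of at least 4, the cluster held 5, and the other 2 were the pieces at 184041195 to 184041232. In PDS, by contrast, 17 of the 23 peaks at that level lay outside the cluster.

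Within the cluster the place of highest enrichment differed between the lists. In PDS it was the 5′ side: the peaks at 184052534 to 184052586 and 184052587 to 184052632 had log2 folds of 5.76 and 5.44, and the first of these was enriched 54.3-fold over input, the highest value of either list on EIF4G1. The Ctrl peak beneath them, at 184052555 to 184052627, had a log2 fold of 3.59, which was the lowest Ctrl value of the cluster. In Ctrl the highest enrichment lay further downstream, with log2 folds of 5.45 at 184052731 to 184052821 and 5.53 at 184052822 to 184052915. Over these bases the PDS peaks had log2 folds of 5.43 at 184052737 to 184052755, 4.79 at 184052756 to 184052821 and 5.24 at 184052822 to 184052914. Between both parts, the PDS peak at 184052662 to 184052729 had a log2 fold of 5.25 and the Ctrl peak at 184052675 to 184052730 had 4.18.

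The 3′ edge of the cluster differed as well. The last PDS peak ended at 184052914, 1 nt before the Ctrl peak at the same place. Downstream of it the Ctrl list had a pair of further peaks, at 184052940 to 184052989 (50 nt, log2 fold 4.94) and at 184053011 to 184053095 (85 nt, log2 fold 4.53). They were the most enriched Ctrl peaks on EIF4G1 without an overlapping PDS peak. The other 7 unshared Ctrl peaks had log2 folds of 3.08 to 3.97.

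**Figure D4:**
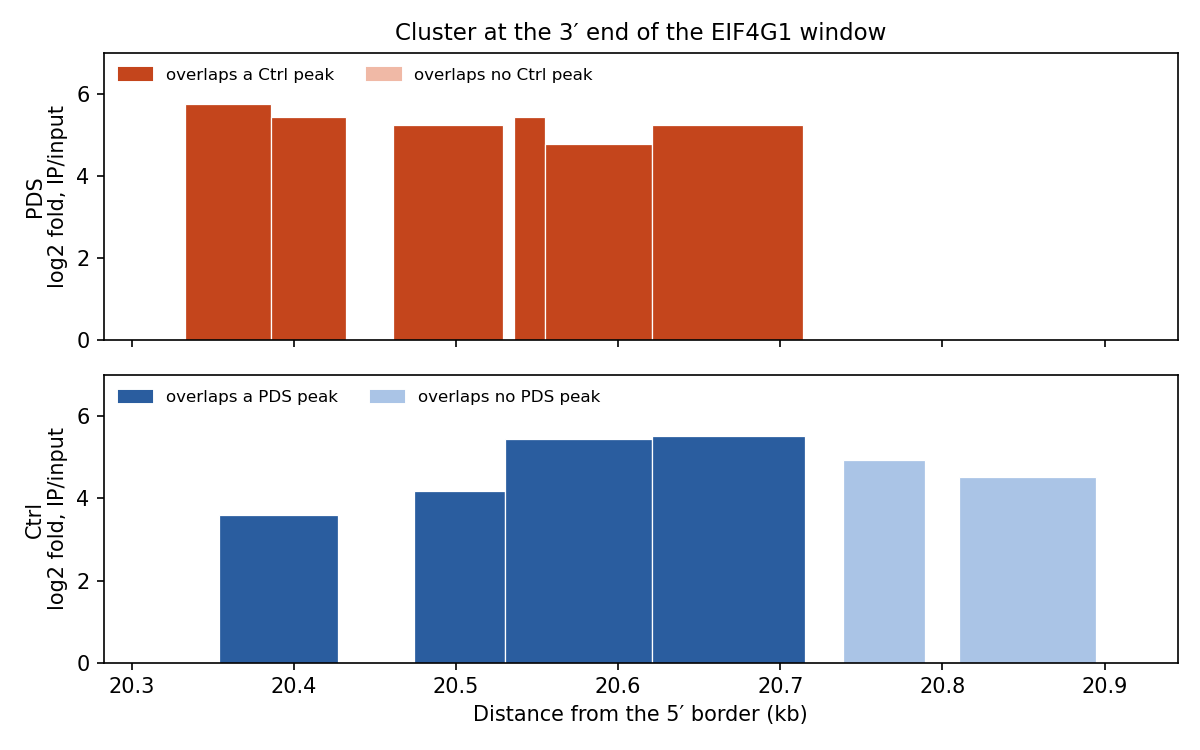
The cluster at the 3′ end of the window drawn to scale, PDS above and Ctrl below; x axis, distance from the 5′ border in kb; y axis, the authors' log2 fold of IP over input; dark bars overlap a peak of the other list. The PDS bars are highest on the left (5.76) and end at the last shared peak, while the Ctrl bars are highest in the middle (5.53) and continue with 2 pale bars that have no PDS peak.

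Sites were next compared by position. Of the 37 PDS peaks on EIF4G1, 22 overlapped a Ctrl peak by at least 1 nt, a share of 59.5% (exact 95% binomial interval 42.1 to 75.2%), where 30.6% of all PDS peaks did. Among the 26 Ctrl peaks, 17 met a PDS peak, a share of 65.4% (44.3 to 82.8%), where 51.5% of all Ctrl peaks did. These intervals reflect counting error alone, and adjacent peaks depend on each other. In nucleotides, 1014 were bound in both lists, which is 55.7% of the PDS bound length and 61.0% of the Ctrl bound length on EIF4G1, and 24.4% and 42.5% over the complete PDS and Ctrl lists. With a reciprocal overlap of 50% as the definition, 35.1% of PDS peaks and 50% of Ctrl peaks of EIF4G1 were shared.

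When peaks of both lists were merged together within 50 nt, 25 regions resulted. Peaks of both lists were found in 12 of them, of PDS alone in 6 and of Ctrl alone in 7. Over the complete lists, merged in the same way into 2599 regions, 22.4% held peaks of both lists, 55.4% of PDS alone and 22.2% of Ctrl alone. In the 12 regions in common the highest log2 fold was in the PDS list in 11. This count was not made over the complete lists, where PDS was the higher in 64.9% of overlapping peak pairs. Whether EIF4G1 differs from the complete lists in this was not tested. The largest differences were 1.79 at 184049260 to 184049394, 1.61 at 184045004 to 184045237 and 1.46 at 184045374 to 184045422, in log2 units, PDS minus Ctrl. The highest value was taken over unequal numbers of peaks. There were 4 PDS against 1 Ctrl at 184049260 to 184049394, and 1 PDS against 2 Ctrl at 184041195 to 184041232. Weighting each peak by its width left the PDS value higher in 10 of 12 regions, again without a count over the complete lists. The region that turned was 184043271 to 184043427, where the weighted difference was -0.05, next to a difference in the highest value of 0.11. The region at 184041195 to 184041232 was higher in Ctrl by both measures.

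Unshared peaks had the lower median enrichment in both lists. Their median log2 fold was 3.77 for 15 PDS peaks, against 4.77 for the shared PDS peaks, and 3.34 for 9 Ctrl peaks, against 3.67 for the shared Ctrl peaks. The complete lists had the same order, with 3.47 for unshared and 3.97 for shared PDS peaks, and 3.43 for unshared and 3.63 for shared Ctrl peaks. Some lay close to the other list: 5 of the 15 unshared PDS peaks and 3 of the 9 unshared Ctrl peaks had a peak of the other list within 100 nt. The most enriched unshared PDS peak was the last piece of the stretch at 184049362 to 184049394 (log2 fold 4.39), directly beside a shared one.

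Where peaks overlapped, the PDS value was mostly the higher. The 22 PDS and 17 Ctrl peaks formed 24 overlapping pairs, in which some peaks occur more than once. The log2 fold was higher in PDS in 19 of 24 pairs, where it was higher in 64.9% of the 1002 pairs of the complete lists. The median difference, PDS minus Ctrl, was 0.74 over the EIF4G1 pairs, with a range of -0.94 to 2.17, and 0.24 over all pairs. Counted over the shared nucleotides, the median difference was 0.46 on EIF4G1 and 0.21 over all pairs. In the cluster at the 3′ end 3 of 6 pairs were higher in PDS, and in the rest of the window 16 of 18 were. The −log10 p was higher in PDS in 20 of the 24 pairs; over all members its median was 41.9 in PDS and 14.5 in Ctrl, and over the complete lists 17.8 in PDS and 11.9 in Ctrl. Whether more reads behind the PDS peaks take part in these differences was not tested.

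**Figure D5:**
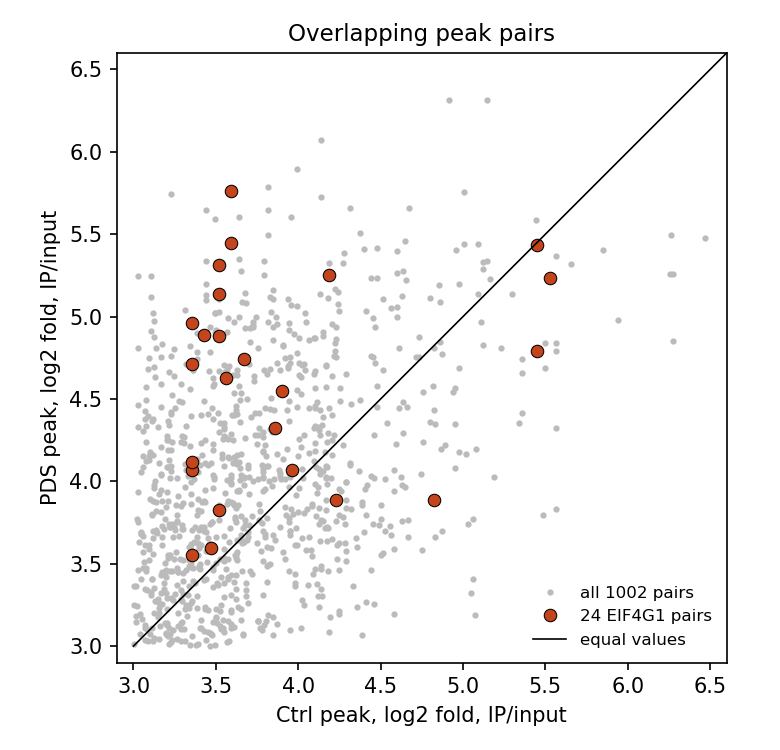
The authors' log2 fold of IP over input for overlapping PDS peaks (y axis) and Ctrl peaks (x axis); each point is 1 pair of overlapping peaks, grey for all 1002 pairs and red for the 24 pairs of EIF4G1. Above the line of equal values lie 19 of the EIF4G1 pairs, and the 5 below it come from the site at 184041195 and from the cluster at the 3′ end.

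Peaks that paired one to one lay at nearly the same place in both lists. Exactly 1 PDS peak met exactly 1 Ctrl peak in 9 cases on EIF4G1, and in 8 of them the midpoints were at most 10 nt apart. The median distance between the midpoints was 3 nt, with a largest distance of 15 nt. Over all 410 such pairs of the complete lists the median was 7 nt, and in 61.0% the midpoints were at most 10 nt apart. These pairs were chosen by their overlap, so their closeness is a description. In 8 of the 9 on EIF4G1 the log2 fold was higher in PDS, where it was higher in 254 of the 410 pairs of the complete lists. The exception on EIF4G1 was the pair starting at 184052822, with 5.24 in PDS and 5.53 in Ctrl.

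PDS peaks were shorter and more of them touched each other. On EIF4G1, 23 of 37 PDS peaks touched another PDS peak at a shared border, where 40.5% of all PDS peaks did, and 7 of 26 Ctrl peaks touched another Ctrl peak, where 20.3% of all Ctrl peaks did. The touching peaks formed 9 runs in PDS, of which 4 had at least 3 pieces, and 3 runs in Ctrl, of which 1 had 3 pieces, the run at 184052675 to 184052915. The median width was 46 nt for PDS peaks and 71 nt for Ctrl peaks, and over the complete lists 63 nt for PDS and 74 nt for Ctrl. Widths below 20 nt were found in 10 PDS peaks, where 14.7% of all PDS peaks were that short, and in 3 Ctrl peaks, where 6.47% of all Ctrl peaks were. The narrowest PDS peaks were 3 nt long, at 184041027 to 184041029 and at 184042666 to 184042668, and the narrowest Ctrl peaks were 8 nt long, at 184041195 to 184041202 and at 184043420 to 184043427. After merging, the median width was 88.5 nt for PDS regions and 74 nt for Ctrl regions on EIF4G1, and 87 nt for PDS and 85 nt for Ctrl over the complete lists. Pieces of 1 run differed in enrichment by up to 0.99 log2 units in PDS, in the run starting at 184045004, and by up to 1.34 in Ctrl, in the run at the 3′ end.

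With its neighbourhood chained over gaps of up to 10000 nt, EIF4G1 made up most of the locus with the third highest number of peaks among 1192 loci. The loci ahead of it lay on chromosome X (153577052 to 153596260, minus strand), with 72 PDS and 43 Ctrl peaks, and on chromosome 8 (144990307 to 145008211, minus strand), with 48 PDS and 32 Ctrl peaks. In peak number the PDS to Ctrl ratio was 1.67 for the chromosome X locus and 1.5 for the chromosome 8 locus. It was 1.52 for the chained locus with EIF4G1 (41 PDS and 27 Ctrl peaks) and 1.42 for the EIF4G1 window alone. The PDS median log2 fold was lower in the EIF4G1 window (4.19) than in the chromosome X locus (4.77) and the chromosome 8 locus (4.66). So was the Ctrl median, 3.58 in the window, against 4.40 and 3.91. Over the chained locus with EIF4G1 the medians were 4.19 in PDS and 3.56 in Ctrl. PDS was the higher in 43 of 55 overlapping pairs on chromosome X and in 28 of 29 on chromosome 8, beside 19 of 24 on EIF4G1. Of the PDS peaks, 69.4% were shared on chromosome X and 58.3% on chromosome 8, beside 59.5% in the EIF4G1 window. For Ctrl peaks these shares were 79.1% and 43.8%, beside 65.4% in the window. With 1 list per condition, whether EIF4G1 differs from these loci was not tested.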

How the data were processed

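The deposited files are 1 peak list per condition, each made from 2 IP replicates and their inputs. STAR, UMI-tools and cutadapt are the tools named per the submitters' processing notes, with hg19 as the genome build. Which program called the peaks, how it filtered them and how replicates were joined is not given in the sources used here. The files have no header. The fourth column was read as the −log10 p and the fifth as the log2 fold of IP over input, both as deposited by the authors; these readings come from the values and the usual eCLIP format. Starts were treated as counted from 0 and are printed counted from 1.

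Peaks wholly inside the EIF4G1 window were taken from both lists (python 3.11.15, pandas 2.3.3, numpy 2.4.6, scipy 1.17.1). Sharing means an overlap of at least 1 nt on the same strand, and intervals are exact (Clopper-Pearson). The overlap step was tested with copies of deposited Ctrl peaks set among shifted ones, and against a direct peak-by-peak comparison. The merging step was checked on the Ctrl list. No genome was used here, so no sequence is shown and quadruplex patterns were not searched. Named individually are the 10 most enriched peaks of each list, all overlapping sites, the widest and narrowest peaks and all runs of at least 3 touching peaks; other peaks named were chosen after their values were seen. The members and comparisons were chosen with earlier results of these data known. Alternatives were other definitions of sharing and merging, a stricter threshold, a shortened PDS list and the window without its last 3000 nt.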

Additional observations from a re-analysis of the deposited data

How the results depend on the processing

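Of 38 alternative values for 12 results, 25 stayed close to the value reported and 13 moved. A count was taken as close within 1.5 times, and any other value within an exact 95% binomial interval, which for bound length treats nucleotides as independent and is narrow. With the stricter threshold (log2 fold from 4 and −log10 p from 5 upwards) EIF4G1 held 23 PDS and 7 Ctrl peaks, a ratio of 3.29. They formed 11 PDS and 2 Ctrl regions, a ratio of 5.50. With both lists cut at this threshold, 17.4% of those PDS peaks and 42.9% of those Ctrl peaks were shared. Against the other list uncut, 5 of the 23 PDS peaks and 2 of the 7 Ctrl peaks were unshared. Neither kind of share was computed for the complete lists at this threshold, so these values have no background to be read against. At this threshold the last 3000 nt held 33.5% of the PDS and 90.8% of the Ctrl bound length. That share was 19.0% in PDS and 27.0% in Ctrl with all peaks, and by midpoints it held 16.2% of PDS and 23.1% of Ctrl peaks. With reciprocal overlap, 35.1% of PDS peaks were shared. The stricter threshold leaves fewer peaks by construction, and a reciprocal overlap can only lower the shared percentage. Shortening the PDS list cannot change the Ctrl peak count of 26, so this value, counted among those that stayed close, was fixed in advance. Counting by midpoints gives a share of peaks, not of nucleotides. Why the ratios and shares moved with the stricter threshold was not tested. The ratio of regions was 1.05 when only touching peaks were merged and 0.938 within 200 nt, so its side of 1 depends on the gap. Leaving out the last 3000 nt, an alternative chosen after seeing the data, gave a peak ratio of 1.55 and medians of 4.12 in PDS and 3.50 in Ctrl. No paired analysis was possible because replicates were joined before deposit, which also means that none could be left out. The unknown depth limits any statement on a peak missing from a list.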
